A study of Homo sapiens with 21 samples.

Results

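Hyaluronan and dermatan sulfate genes were followed through RNA sequencing of 17 cancer cell lines, of which 7 were parental and 10 had become resistant to a drug. The 10 genes were HAS2, HAS3, CEMIP, CEMIP2, HYAL1, HYAL2, CD44, DSE, DCN and BGN, out of 53515 genes counted, and each matched a single Ensembl identifier by its symbol. They were chosen from earlier results on these same libraries, so the values of resistant against parental cells describe them. No test of the 10 genes is taken as evidence. The question of the comparison was how gene expression differs once a cell line no longer responds to the drug.

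Hyaluronan is a long sugar chain without a protein core that synthases in the cell membrane extrude into the matrix, and that surface proteins and hyaluronidases cut into pieces. Dermatan sulfate is a chain carried on core proteins such as decorin and biglycan, and it arises when an epimerase turns glucuronic acid of chondroitin into iduronic acid. In carcinoma both are best known as matrix of the stroma, and CD44, which binds hyaluronan, is also a surface marker of mesenchymal-type and stem-like cancer cells.

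HepG2, a hepatoma cell line, was the parental cell line of HepG2S1 and HepG2S3, which resist sorafenib. PancVB was the pancreatic parental cell line, and PancB1Q and PancB1V were its counterparts resistant to 5-fluorouracil. The lung cancer cell line HCC4006 was present as HCC4006P1, parent of the erlotinib-resistant HCC4006ER, and as HCC4006P2, parent of the gefitinib-resistant HCC4006GR. HCC827P, also a lung cancer cell line, was the parent of the gefitinib-resistant HCC827GR. From the ovary came UWB1.289 with U10 and U100, which resist olaparib, and IGROV-1 with IGROV-1/CDDP, which resists cisplatin. Only HepG2 with HepG2S3 and HCC4006P1 with HCC4006ER were sequenced in duplicate, and in 8 of the 10 pairs at least 1 side was a single library. Nothing in the labels says that the 2 libraries came from separate cultures, so a p-value measures only the spread between these libraries. All were cultured cells without stroma, and every resistant cell line is 1 derived line, not a set of independent derivations.

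Gene counts summed to 9851195 in the shallowest of the 21 libraries and to 36639473 in the deepest (median 19498932). Values are given as CPM, a gene's count scaled to the total of its library, and 3 counts, the smallest number taken as detected, were worth 0.0819 to 0.305 CPM. In replicate 1 of HCC4006P1 no gene from chr7:30620149 on, nor on chromosomes 8, 9, X, Y and M, held more than stray counts. HAS2, CEMIP2 and BGN lie in that stretch, so their HCC4006P1 value is replicate 2 alone. The stretch held 18.1% of the counts of replicate 2, so the CPM of replicate 1 for all other genes are 22.1% higher than with a full total. The 5 hepatocyte-derived markers (ALB, APOA1, TTR, AFP and HNF4A) summed to 16655 CPM in HepG2 against 0.812 in HepG2S1, with 4 of the 5 at 0, and 17.6 in HepG2S3. The libraries labelled HepG2S1 and HepG2S3 thus held little or none of the RNA of these markers. HepG2S3 still had ALB at 7.44 and 10.9 CPM and AFP at 11.7 and 3.23 CPM, far below HepG2. In the paper's low-coverage genome sequencing, only the HepG2-derived pairs departed from otherwise small copy number differences. Whether the HepG2S1 and HepG2S3 libraries came from the same cell population as HepG2 was not tested. Counts over the 10 pairs are given with and without HepG2S1 and HepG2S3. The 3 lung markers (NKX2-1, SFTPB and NAPSA) summed to 0.423 CPM in HCC4006P1 and 0.535 in HCC4006ER, against 266 in HCC4006P2. Over all expressed genes, the median log2 fold change was 0.25 in HepG2S1 and 0.28 in HepG2S3 and between −0.12 and 0.07 elsewhere, and the changes of these 2 cell lines are to be read relative to it. With library sizes scaled by edgeR's TMM method, the 2 medians were −0.17 and −0.11.

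CEMIP2 and HYAL2 exceeded 10 CPM in all 17, CD44 in 16, DSE in 12, HAS3 in 6, HYAL1 in 5, CEMIP in 4, DCN in 3 and BGN in 1, while HAS2 stayed under 10 CPM throughout. Of the 100 values of 10 genes in 10 pairs, 19 lay above a log2 fold change of 1 and 18 below −1. Without HepG2S1 and HepG2S3 these were 14 and 9 of the remaining values. Among all expressed genes the share above 1 was 25.5% in HepG2S1 and 27.3% in HepG2S3, and in the other pairs 6.1% (PancB1Q), 8.89% (PancB1V), 11.8% (HCC4006ER), 7.75% (HCC4006GR), 10.6% (HCC827GR), 6.27% (U10), 6.43% (U100) and 5.55% (IGROV-1/CDDP). The share below −1 was 18.4% and 17.7% in the liver pairs, 9.41% and 7.25% in the pancreatic pairs, 11.7%, 7.47% and 7.67% in the lung pairs in the order above, and 5.11%, 1.73% and 7.21% in the ovarian pairs. The members were chosen with these contrasts in view, so nothing is read from their share against that background.

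**Figure D1:**
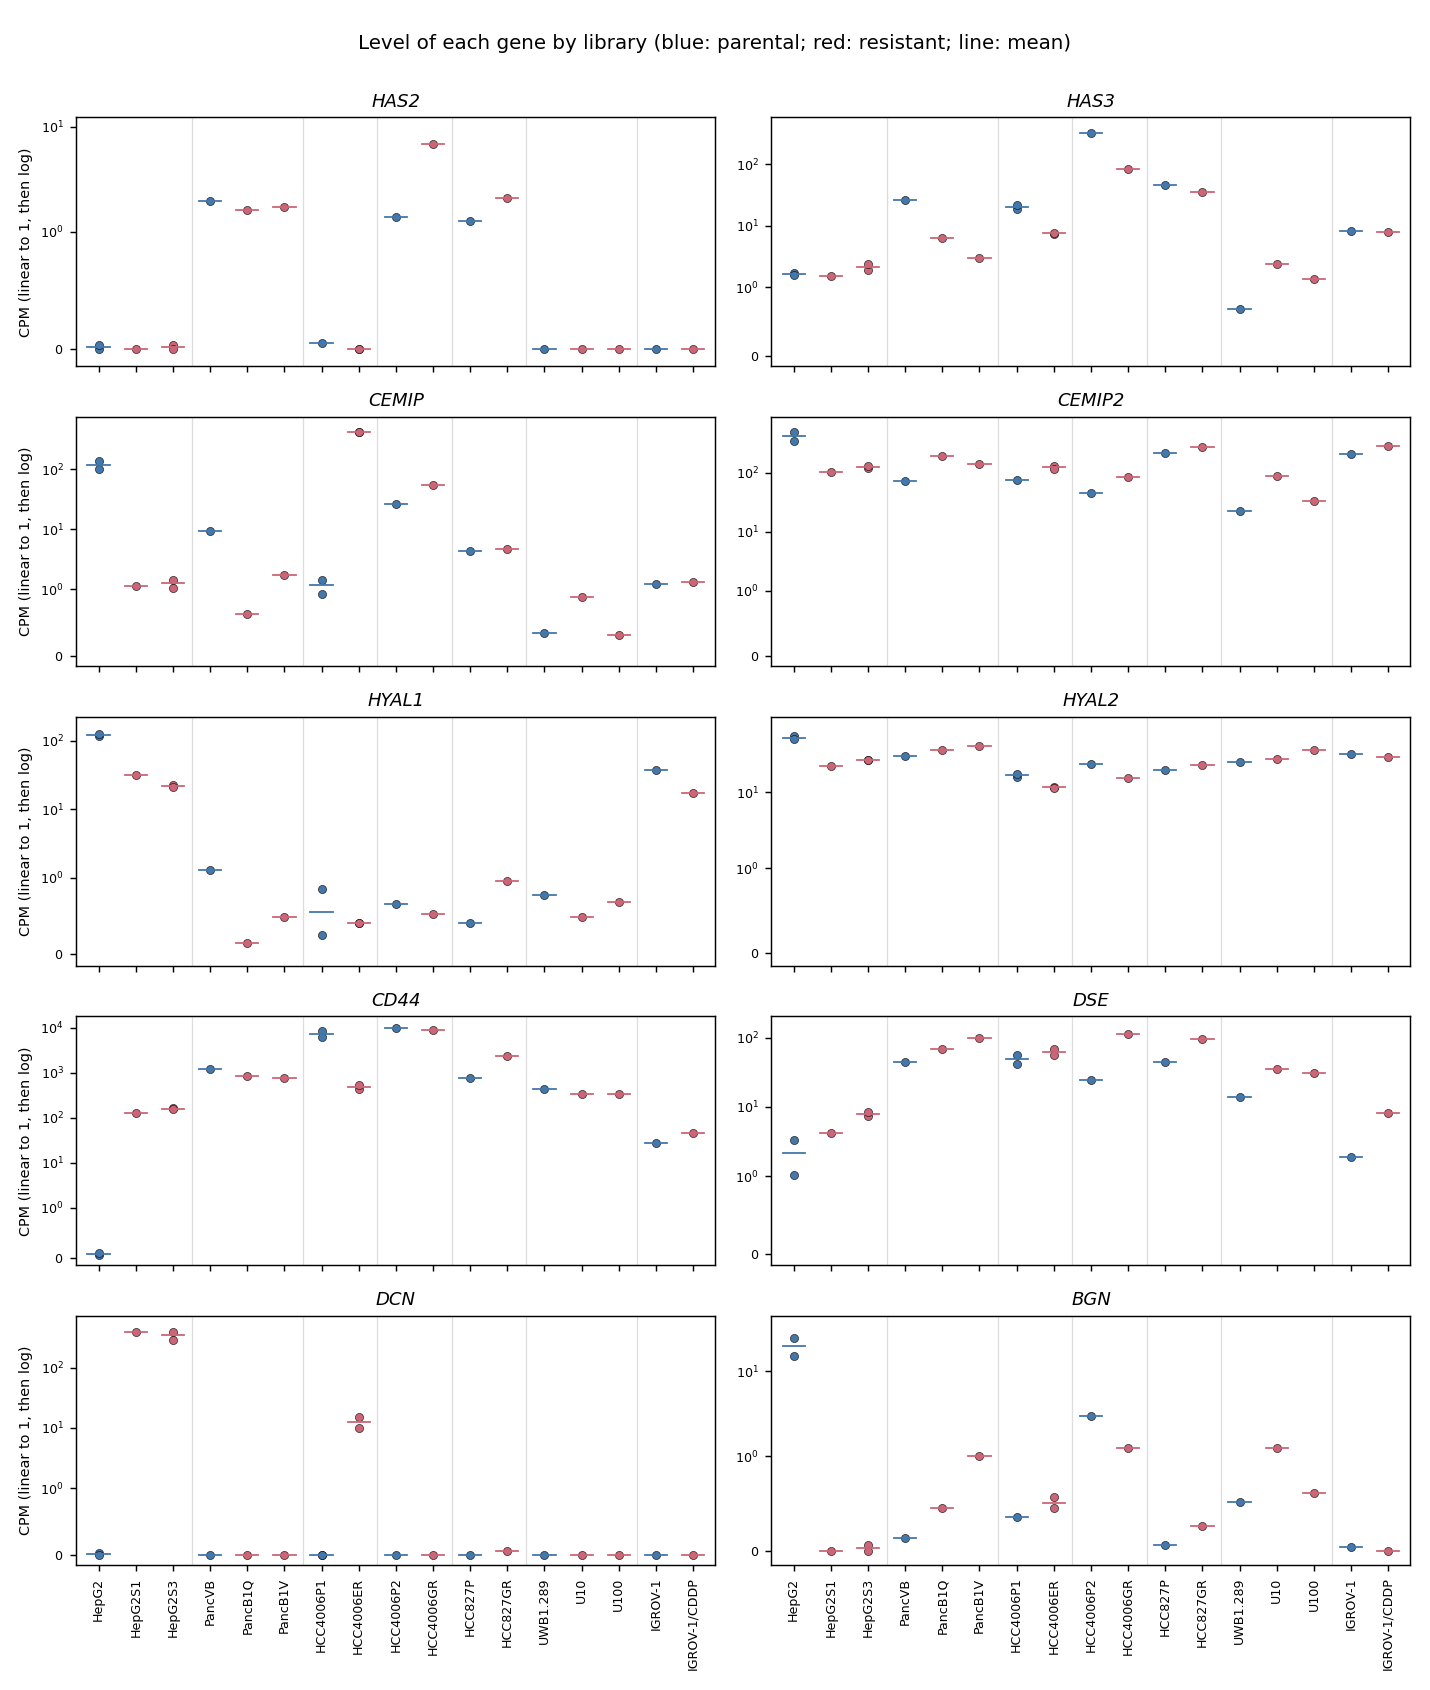
Level of the 10 genes in CPM (vertical axis, linear up to 1 and logarithmic above) in each library of the 17 cell lines (horizontal axis), with parental cell lines in blue, resistant ones in red and a line at the mean. DCN was at or near 0 outside HepG2S1, HepG2S3 and HCC4006ER, while CEMIP2 and HYAL2 stayed above 10 CPM in every cell line.

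**Figure D2:**
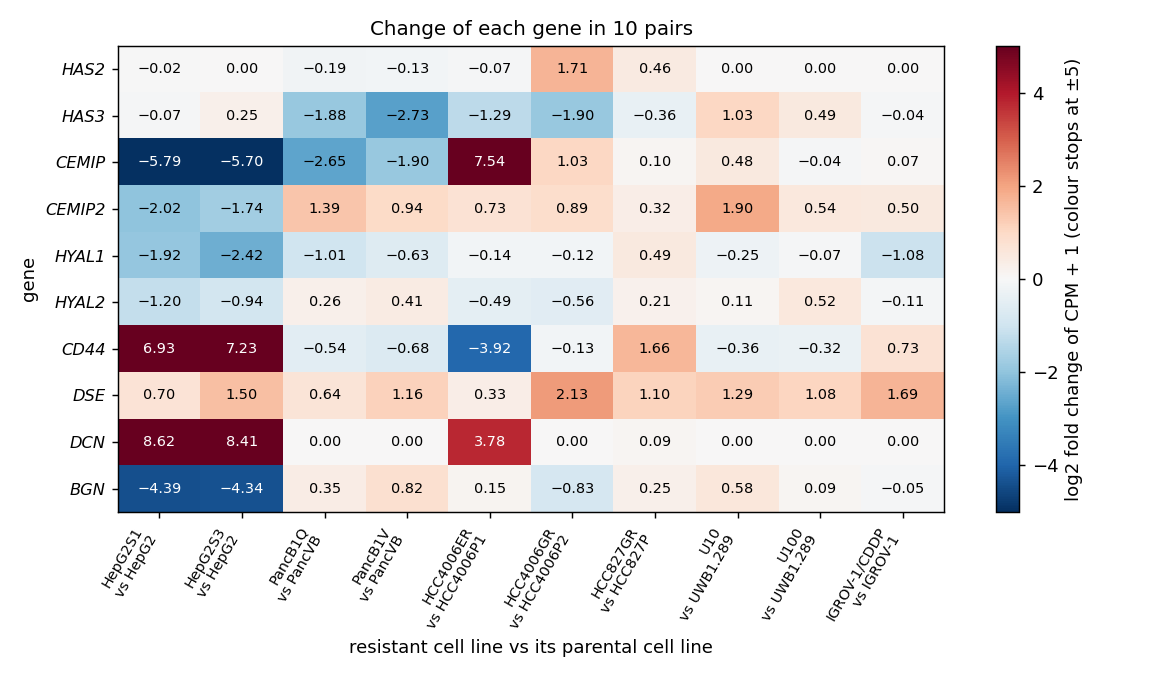
Log2 fold change of CPM + 1 for the 10 genes (vertical axis) in each of the 10 resistant cell lines against its parental cell line (horizontal axis), with red for higher and blue for lower in the resistant cells. DSE is the only gene above 0 in all 10 columns, and CEMIP runs from −5.79 to 7.54 and CD44 from −3.92 to 7.23.

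The sequence before the start is shown for 3 members that went from near 0 to a high level, or the reverse, in at least 1 replicated pair. Each window holds the 250 bases before the GENCODE gene start on GRCh37, 5′ to 3′ on the gene's strand, with CG dinucleotides, the sites of DNA methylation, in capitals. CD44 lies at chr11:35160179-35160428 (+), which is also exonic for the divergent non-coding gene CD44-DT, CEMIP at chr15:81071434-81071683 (+) and DCN at chr12:91576995-91577244 (−).
CD44: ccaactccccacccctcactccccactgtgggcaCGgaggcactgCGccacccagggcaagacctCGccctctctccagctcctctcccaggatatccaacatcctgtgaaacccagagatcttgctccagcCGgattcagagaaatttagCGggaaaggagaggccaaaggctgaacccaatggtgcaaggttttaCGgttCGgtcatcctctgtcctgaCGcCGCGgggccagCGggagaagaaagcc
CEMIP: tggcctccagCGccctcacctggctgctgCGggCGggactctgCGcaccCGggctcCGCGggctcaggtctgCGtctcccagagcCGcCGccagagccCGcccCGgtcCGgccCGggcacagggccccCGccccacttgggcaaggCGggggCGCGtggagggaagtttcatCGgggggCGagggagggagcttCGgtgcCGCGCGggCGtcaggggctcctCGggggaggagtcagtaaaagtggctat
DCN: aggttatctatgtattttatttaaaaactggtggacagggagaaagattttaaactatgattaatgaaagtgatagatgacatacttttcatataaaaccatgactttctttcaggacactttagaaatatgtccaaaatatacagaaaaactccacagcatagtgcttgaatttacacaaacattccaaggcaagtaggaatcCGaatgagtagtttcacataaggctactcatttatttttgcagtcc

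CEMIP carried 26 CG in this window, more than 79.7% of the windows of 18830 protein-coding genes. CD44 carried 11, more than 41.2% of them, and DCN carried 1, more than 3.64%, against a median of 14. Both strands were searched for TATAAA, which 9.80% of all windows hold, and it occurred once in DCN and in neither of the others. CACCTG, an E-box that SNAI and ZEB repressors can bind, is in 18.3% of all windows and occurred once in CEMIP. GGGCGG, the GC box, is in 49.5% of all windows and occurred 3 times in CEMIP but in neither CD44 nor DCN. These are matches of letters in a short window, and DNA methylation was not analysed here.

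Of the synthases, HAS3 was detected in all 17 cell lines and was more than 2-fold lower in the resistant cell line of 4 pairs. In bulk RNA, fewer expressing cells and less RNA per cell cannot be told apart. HAS3 (chr16:69139556-69152622, on GRCh37 as all positions here), which makes shorter hyaluronan chains, had 318.9 CPM in HCC4006P2 against 84.5 in HCC4006GR, a log2 fold change of −1.90. In PancVB it had 26.0 CPM, against 6.30 in PancB1Q and 3.06 in PancB1V, or −1.88 and −2.73 on the log2 scale. HCC4006P1 held 18.5 and 21.7 CPM and HCC4006ER 7.44 and 7.76, so the libraries did not overlap and the log2 fold change was −1.29 ± 0.13 (SD over 4 pairings of libraries). U10 was the exception, with 2.44 CPM against 0.688 in UWB1.289, a log2 fold change of 1.03 that rests on 25 and 8 counts. In HCC827P and HCC827GR HAS3 had 46.0 and 35.7 CPM, in IGROV-1 and IGROV-1/CDDP 8.22 and 7.95, and in the liver cell lines between 1.52 and 2.38. The HepG2S3 value of 0.25 became −0.03 with TMM-scaled library sizes, and the IGROV-1/CDDP value of −0.04 became 0.03. The highest level was in HCC4006P2, and the neighbours IGROV-1 and IGROV-1/CDDP did not differ beyond counting error.

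HAS2, on chromosome 8, encodes the synthase usually linked to long hyaluronan and mesenchymal cells. It was at 0 counts in UWB1.289, U10, U100, IGROV-1 and IGROV-1/CDDP and at no more than 1 count per library in the liver cell lines and in HCC4006P1 and HCC4006ER. Its highest level, 6.82 CPM in HCC4006GR, stood against 1.40 in HCC4006P2, a log2 fold change of 1.71 on 103 and 19 counts. HCC827GR had 2.12 CPM against 1.27 in HCC827P, and PancVB, PancB1Q and PancB1V had 1.98, 1.61 and 1.73, differences within counting error. Counts of HAS2 and of its antisense gene HAS2-AS1 can be told apart only where the counting used strand, which is not given in the sources used here. HCC4006GR was the only resistant cell line past 2-fold in both synthases, with HAS2 above and HAS3 below its parent.

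CEMIP showed the widest range of the 4 depolymerising genes, from much lower in the resistant liver and pancreatic cell lines to much higher in HCC4006ER. CEMIP (chr15:81071684-81244117), a secreted protein required for hyaluronan breakdown by fibroblasts, had 133 and 98.4 CPM in the 2 HepG2 libraries, 1.12 in HepG2S1 and 1.06 and 1.44 in HepG2S3. Its log2 fold change was −5.79 ± 0.31 (SD, 2 pairings) in HepG2S1 and −5.70 ± 0.29 (SD, 4 pairings) in HepG2S3. In HCC4006P1 it had 1.44 and 0.923 CPM and in HCC4006ER 406 and 406, so the log2 fold change was 7.54 ± 0.20 (SD, 4 pairings) and the libraries lay far apart. PancVB stood at 9.21 CPM against 0.630 in PancB1Q and 1.73 in PancB1V, or −2.65 and −1.90 on the log2 scale. HCC4006GR had 53.8 CPM against 25.8 in HCC4006P2, the other pair above 2-fold. In HCC827GR, U10, U100 and IGROV-1/CDDP the difference from the parental cell line was within counting error. CEMIP shares bases with MESD and MIR549 on the other strand.

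CEMIP2 (chr9:74298282-74431606), a membrane relative of CEMIP, moved less and mostly upward. It was higher in the resistant cell line of 8 pairs, each beyond counting error, and lower in both liver pairs. HepG2 held 486 and 349.6 CPM, HepG2S1 103 and HepG2S3 121 and 127, giving log2 fold changes of −2.02 and −1.74. U10 held 87.0 CPM against 22.6 in UWB1.289, and PancB1Q 190.1 against 72.1 in PancVB, the 2 pairs above 2-fold at 1.90 and 1.39. PancB1V, at 0.94, passed 2-fold with TMM-scaled library sizes, at 1.01. HCC4006ER held 130.1 and 117 CPM against 73.8 in the 1 usable HCC4006P1 library, a log2 fold change of 0.73.

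HYAL1 (chr3:50337321-50349812), a lysosomal hyaluronidase, was a gene of HepG2 and IGROV-1. HepG2 held 119 and 124 CPM, HepG2S1 31.4 and HepG2S3 22.5 and 21.2, or −1.92 ± 0.04 (SD, 2 pairings) and −2.42 ± 0.06 (SD, 4 pairings) on the log2 scale. IGROV-1 held 37.1 CPM and IGROV-1/CDDP 17.01, or −1.08 on the log2 scale, which was −0.997 with TMM-scaled library sizes. PancVB was just above 1 CPM with 28 counts, and the other 11 cell lines stayed below, from 0.140 in PancB1Q to 0.965 in HCC827GR. The PancB1Q value of −1.01 rests on 4 against 28 counts and was −0.94 with TMM-scaled sizes.

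HYAL2 (chr3:50355221-50360213), a hyaluronidase anchored at the cell surface, varied least, between 11.5 CPM in HCC4006ER and 51.6 in HepG2. HepG2S1, with 21.9 CPM against 54.1 and 49.1 in HepG2, was the only pair past 2-fold, at −1.20, and HepG2S3 was at −0.94, or −1.36 with TMM-scaled library sizes. HCC4006ER (11.7 and 11.2 CPM) and HCC4006GR (15.5) were lower than HCC4006P1 (16.0 and 17.2) and HCC4006P2 (23.4) by 0.49 and 0.56 on the log2 scale. With library totals over genes outside the stretch HCC4006P1 held 16.0 and 21.0 CPM and HCC4006ER 14.2 and 13.6. The HCC4006ER difference was not called (edgeR adjusted p = 0.0825). The gene overlaps TUSC2 on the same strand, and reads in the shared part cannot be assigned to one of them.

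CD44, the main hyaluronan receptor (chr11:35160429-35253949), was near 0 in HepG2 and high in both of its resistant cell lines, and was far lower in HCC4006ER than in its parent. The 2 HepG2 libraries held 2 and 3 counts, or 0.0546 and 0.0861 CPM, while HepG2S1 held 129 CPM and HepG2S3 163 and 157. The log2 fold changes were 6.93 ± 0.03 (SD, 2 pairings) and 7.23 ± 0.04 (SD, 4 pairings). HCC4006P1 held 8515 and 6130 CPM and HCC4006ER 445 and 522, a log2 fold change of −3.92 ± 0.30 (SD, 4 pairings), so in both replicated pairs the libraries of the 2 groups did not overlap. The other HCC4006 pair stayed high on both sides, at 9870 CPM in HCC4006P2 and 9031 in HCC4006GR. HCC827GR held 2404 CPM against 760.5 in HCC827P, the third pair above 2-fold at 1.66. PancVB held 1227 CPM, PancB1Q 845 and PancB1V 765, UWB1.289 held 424, U10 331 and U100 341, and IGROV-1/CDDP held 46.4 against 27.6 in IGROV-1, all within 2-fold of the parent. CD44 counts are per gene, so standard and variant isoforms could not be told apart, and the gene overlaps another annotated gene on its own strand and CD44-AS1 and CD44-DT on the other. In the order of levels HCC4006P2, HCC4006GR and HCC4006P1 led, at 9870, 9031 and a mean of 7323 CPM. With library totals over genes outside the stretch the order was the same, at 12084, 10952 and, in the 2 HCC4006P1 libraries, 8515 and 7487 CPM, and HCC4006P2 and HCC4006GR have no replicate spread to set against these gaps.

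CEMIP and CD44 thus went opposite ways in the 2 replicated pairs, and each gene also reversed its own direction between them. In HepG2S3 CEMIP was lower and CD44 higher than in the parent, and in HCC4006ER CEMIP was higher and CD44 lower. HepG2S1, which shares its HepG2 libraries with HepG2S3, had the HepG2S3 pattern. In both pancreatic pairs the 2 genes were lower than in PancVB, and in HCC4006GR CEMIP was 2.09 times the parental level while CD44 was 0.915 times.

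DSE (chr6:116575336-116766024), the epimerase that makes the iduronic acid of dermatan sulfate, was the only member with a higher level in the resistant cell line of all 10 pairs. Its log2 fold changes ran from 0.33 to 2.13 with a median of 1.13, all 10 lay beyond counting error, and 7 were above 2-fold. Without HepG2S1 and HepG2S3 it was higher in 8 of 8 pairs, 6 of them above 2-fold, and CEMIP2 was higher in 8 of 8 as well, 2 of them above 2-fold. CHPF2, a chondroitin and dermatan sulfate gene not among the 10, was also higher in all 10 pairs, 9 of them beyond counting error. Only 1 of its values was above 2-fold, with a median of 0.46 and a lowest of 0.02. The share of all genes higher in all 10 pairs was not worked out. Taken as 1 value for each parental cell line, the mean was 1.20 ± 0.57 (SD, n = 7 parental cell lines), above 0 in 7 of 7. HCC4006P1 and HCC4006P2 are both HCC4006, so these 7 values are not all independent. HCC4006GR held 111 CPM against 24.8 in HCC4006P2, IGROV-1/CDDP 8.31 against 1.89 in IGROV-1, and HCC827GR 95.6 against 43.95 in HCC827P. U10 and U100 held 35.5 and 30.6 CPM against 13.9 in UWB1.289, and PancB1Q and PancB1V 69.1 and 99.6 against 44.1 in PancVB. These 7 single-library values lay between 0.64 and 2.13 on the log2 scale. HepG2 held 1.06 and 3.30 CPM, HepG2S1 4.16 and HepG2S3 7.50 and 8.52. The 2 HepG2 libraries differed from each other by more than the higher of them differed from HepG2S1, whose log2 fold change was 0.70 ± 0.75 (SD, 2 pairings). HCC4006P1 held 56.5 and 42.0 CPM and HCC4006ER 67.3 and 56.7, a log2 fold change of 0.33 ± 0.28 (SD, 4 pairings) with a lowest pairing of 0.00. With library totals over genes outside the stretch these were 56.5 and 51.3 against 81.6 and 68.7 CPM, a log2 fold change of 0.47, and the libraries of the 2 cell lines lay further apart. The direction was the same with TMM-scaled library sizes, where the values ran from 0.37 to 2.17. DSE overlaps TSPYL1 on the other strand.

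DSEL, a paralogue of DSE with the same epimerase activity that is not among the 10, was higher in 8 of the 10 pairs and 7 were above 2-fold, or 6 and 5 of 8 without HepG2S1 and HepG2S3. It had 0.409 and 0.488 CPM in HepG2, 224 in HepG2S1 and 207 and 244 in HepG2S3, and rose by 8.65 ± 0.21 (SE) on the log2 scale in HepG2S3 (edgeR quasi-likelihood test, Benjamini-Hochberg adjusted p = 2.59e-05). It also rose in HCC4006ER, from 6.09 and 9.23 to 78.4 and 71.5 CPM, by 3.30 ± 0.30 (SE, edgeR adjusted p = 0.000256). HCC827GR held 120 CPM of DSEL against 19.4 in HCC827P, PancB1Q and PancB1V 34.7 and 40.3 against 11.4 in PancVB, and IGROV-1/CDDP 8.90 against 3.13 in IGROV-1. In the olaparib pairs DSEL had 6.73 CPM in U10 and 6.33 in U100 against 8.52 in UWB1.289, where DSE was above 2-fold.

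**Figure D3:**
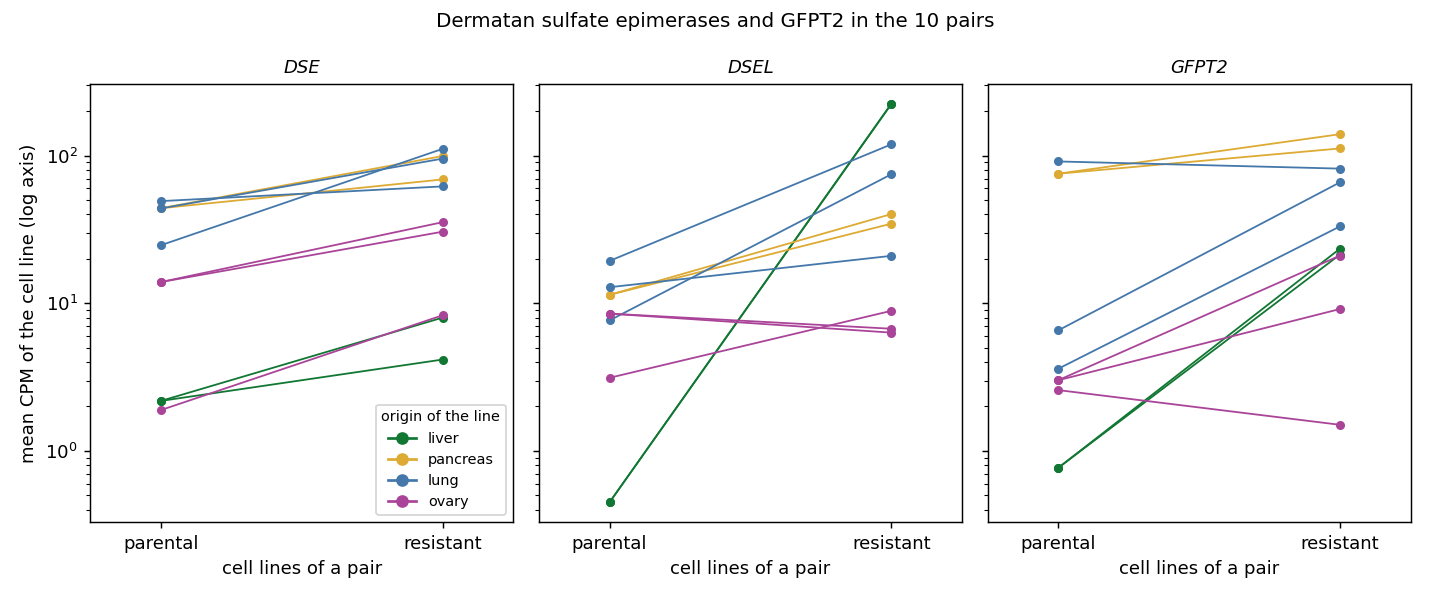
Mean CPM of DSE, DSEL and GFPT2 (vertical axis, logarithmic) in the parental and the resistant cell line of each of the 10 pairs (horizontal axis), with 1 line for each pair coloured by origin, where pairs of one parent share their left point and the 2 liver pairs nearly coincide for DSEL. All 10 DSE lines rise to the right, against 8 of 10 for DSEL and 8 of 10 for GFPT2.

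DCN and BGN, which encode the dermatan sulfate carrying cores decorin and biglycan, went opposite ways in the liver pairs. DCN (chr12:91534261-91576994) had 1 and 0 counts in the HepG2 libraries, 398.9 CPM in HepG2S1 and 290.9 and 398.4 CPM in HepG2S3. HCC4006P1 had 0 counts in both libraries against 303 and 196 counts in HCC4006ER, or 15.3 and 10.1 CPM, which is at least 162-fold higher against 3 counts over the group. The remaining 12 cell lines had 0 counts, except for a single count in HCC827GR. DCN was thus detected in 3 resistant cell lines, labelled as derived from HepG2 or HCC4006, and in no parental cell line beyond that 1 HepG2 count. Against the 1 count the ratio was 28519 for HepG2S1 (95% exact interval 5116 to 1126720) and 24556 for HepG2S3 (4407 to 969970).

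BGN (chrX:152760438-152775004) had 15.1 and 24.7 CPM in HepG2, 0 counts in HepG2S1 and 2 and 0 counts in HepG2S3. The level was at least 65.1-fold lower in HepG2S1 against 3 counts, and 621 times lower in HepG2S3 on those 2 counts (95% exact interval 172 to 5132). No other cell line exceeded 3.01 CPM, the level of HCC4006P2, against 1.26 in HCC4006GR. PancB1V had 1.01 CPM of BGN against 0.138 in PancVB on 25 and 3 counts. In HCC4006ER, where DCN was detected, BGN stayed at 0.456 and 0.565 CPM against 0.359 in HCC4006P1. BGN overlaps HAUS7 on the other strand.

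DCN lies in a row of small leucine-rich proteoglycan genes on chromosome 12, with LUM, KERA and EPYC as its neighbours on the same strand. LUM, which encodes lumican and lies 28990 bases away, had 1 count in each HepG2 library against 135 CPM in HepG2S1 and 32.3 and 40.7 in HepG2S3. In HCC4006P1 LUM had 2 and 1 counts against 131 and 97.9 CPM in HCC4006ER, and it was under 0.2 CPM in every other cell line. LUM rose in both replicated pairs, by 9.87 ± 0.34 and 10.45 ± 0.33 (SE) on the log2 scale (edgeR adjusted p = 3.92e-05 and 8.38e-06). EPYC, which encodes epiphycan, had 4.76 and 3.08 CPM in HCC4006ER against 0.160 and 0 in HCC4006P1 and rose by 5.59 ± 0.65 (SE, edgeR adjusted p = 0.000744), but it had 0 counts in HepG2, HepG2S1 and HepG2S3. KERA held no more than 1 count in any library. The 3 resistant cell lines with DCN were thus those with LUM, and 1 of them also had EPYC.

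The summed level of the 8 fibroblast markers, which include LUM, was also raised in some cell lines without DCN, through few of the markers. Their sum was 6.21 to 29.7 CPM in the 7 parental cell lines and 4.06 to 1570 in the 10 resistant ones, with 1570 in HCC4006ER, 187 in U10, 181 in HepG2S1, 166 in HCC4006GR and 74.4 in HepG2S3. U10 and HCC4006GR held 0 counts of DCN. In U10 THY1 alone held 165 CPM, and 3 of the 8 markers were over 1 CPM. In HCC4006GR COL1A2 held 100 CPM and COL1A1 53.6, and in HepG2S1 LUM held 135. In HCC4006ER COL1A2 had 1422 and 1243 CPM, COL3A1 51.6 and 35.4 and PDGFRB 34.5 and 37.1, while FAP and THY1 had 4 counts or fewer in each library. In HepG2S1 and HepG2S3 FAP had 17.4, 12.8 and 13.7 CPM, and COL1A2 and COL3A1 had 4 counts or fewer in each library. Of these markers, COL1A1, COL1A2 and COL3A1 belong to the mesenchymal signature the study used. The part of the fibroblast markers in the DCN values was not tested.

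**Figure D4:**
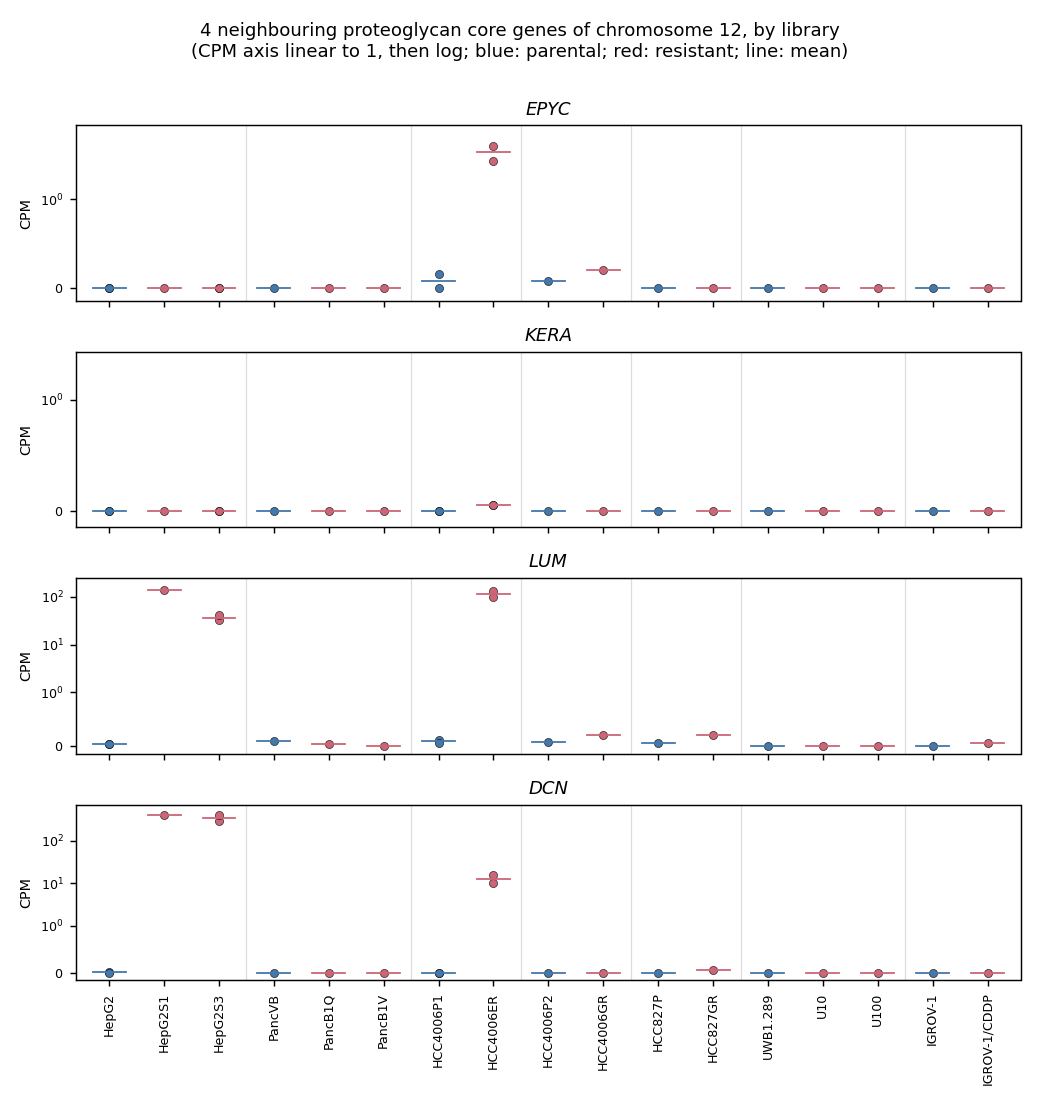
CPM of EPYC, KERA, LUM and DCN (vertical axes, linear up to 1 and logarithmic above), neighbouring genes on chromosome 12, in each library of the 17 cell lines (horizontal axis), with parental cell lines in blue, resistant ones in red and a line at the mean. LUM and DCN stand out in HepG2S1, HepG2S3 and HCC4006ER, EPYC in HCC4006ER alone, and KERA in none.

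In the 2 replicated pairs the members were part of the fits over all genes. Of the 9 members tested in HepG2S3, 3 were called higher and 5 lower (edgeR adjusted p under 0.05), where 31.4% of 16929 genes were called higher and 32.1% lower. In HCC4006ER 3 were called higher and 2 lower of the 6 tested outside the missing stretch, where 24.1% and 24.9% of 12791 genes were called. Under DESeq2 and with no count filter 2 were higher and 2 lower there, and with the replicate block 3 and 3. DSE was called close to the threshold, at edgeR adjusted p = 0.0440 in HepG2S3 and 0.0494 in HCC4006ER. HAS2 in HepG2S3 and HYAL1 in HCC4006ER did not pass the filter on low counts, and HAS2, CEMIP2 and BGN lie in the stretch. These contrasts were used to choose the members, so the calls of members are a description. Nothing is read from their number against the share of all genes. With 1 value for each of the 7 parental cell lines, edgeR called none of 19829 genes, in either direction. An unadjusted p under 0.05 was held by 920, no more than that threshold passes with no difference. Among the 920 were 2 of the 10 members. DESeq2 called 81 genes higher and 21 lower in the same design, 1 of the members among the higher. HCC4006P1 and HCC4006P2 are both HCC4006, and with their families summed as 1 parent edgeR also called none of 20071 genes.

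The other genes of both pathways, 71 in 5 lists, were tested in the same fits. The lists were also chosen with earlier results of these data known, so calls of list genes are a description and not independent evidence. In HepG2S3 17 rose and 21 fell of 55 tested, where 31.4% of all tested genes were called higher and 32.1% lower. In HCC4006ER 17 rose and 11 fell of 41 tested, where these shares were 24.1% and 24.9%. Nothing is read from these counts, or from the counts of single lists below, against the shares. For 6 more in the missing stretch, tested against replicate 2 of HCC4006P1 alone (background 30.8% higher and 31.2% lower of 16597 genes), 3 were higher and 1 lower at the same threshold. The spread in that fit comes from the 2 HCC4006ER libraries alone, and the lone parental library is assumed to vary like them. Had all genes been kept as deposited in HCC4006P1 replicate 1, the HCC4006ER calls of GNPNAT1, HAPLN3, HMMR, CHSY3, UST, CHST11, CHST14 and EPYC would have been lost. Over the 7 parental cell lines none of 55 was called by edgeR and none of 52 by DESeq2, with 6 at an unadjusted p under 0.05 in edgeR. The medians below stand beside medians over all tested genes of −0.01 in HepG2S3 and 0.01 in HCC4006ER.

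Of the 7 genes that make the UDP-sugar precursors of these chains, 3 rose and 1 fell in HepG2S3 (median log2 fold change 0.07) and 2 rose and 4 fell in HCC4006ER (median −0.69). GFPT2, an isoenzyme of the rate-limiting step to UDP-N-acetylglucosamine, rose in both, by 4.63 ± 0.61 (SE, edgeR adjusted p = 0.00182) and 3.41 ± 0.18 (SE, adjusted p = 3.42e-05). GFPT2 had 0.300 and 1.23 CPM in HepG2 against 27.7 and 19.2 in HepG2S3, and 8.28 and 4.82 in HCC4006P1 against 69.6 and 62.6 in HCC4006ER. It was also higher in HepG2S1, PancB1Q, PancB1V, HCC4006GR, U10 and U100, so in 8 of the 10 pairs, 6 of them above 2-fold, and lower in HCC827GR and IGROV-1/CDDP. Without HepG2S1 and HepG2S3 it was higher in 6 of 8 pairs, 4 of them above 2-fold. UGDH, which makes UDP-glucuronic acid, fell in both, by 2.25 ± 0.17 and 0.78 ± 0.13 (SE) on the log2 scale (edgeR adjusted p = 0.000303 and 0.00338). UAP1 and UGP2 rose in HepG2S3 by 1.40 and 0.93, while PGM3 rose by 1.38 and GFPT1 and GNPNAT1 fell by 0.93 and 0.96 in HCC4006ER.

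Among the other synthase, hyaluronidases and lysosomal exoglycosidases, 4 of 7 were tested in HepG2S3 (median −0.48) and 3 in HCC4006ER (median −0.22). In HepG2S3 GUSB, the lysosomal beta-glucuronidase, rose by 1.58, and HYAL3, a hyaluronidase, fell by 0.93, a call lost without either HepG2S3 library. In HCC4006ER none of the 3 was called, and GUSB, which lies in the stretch, had a log2 fold change of 0.36 ± 0.13 (SE) against 1 parental library.

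Other hyaluronan receptors and binding proteins mostly fell in HepG2S3, with 10 lower and 2 higher of 14 tested. Their median was −6.72, or −4.00 when the 4 genes without a count in one group are set at their bound. ITIH2 and ITIH3, heavy chains of liver-made serum proteins that become bound to hyaluronan, had the largest decreases. ITIH2 fell by 10.51 ± 0.23 (SE, edgeR adjusted p = 2.59e-05), and ITIH3 fell by 11.30 ± 0.75 (SE, edgeR adjusted p = 0.000203). ITIH2 went from 3488 and 3366 CPM to 2.97 and 2.87, and ITIH3 from 425 and 434 to 0 and 0.425. The hepatocyte-derived markers were lower in the same libraries, and their part in these values was not tested. LYVE1, the lymphatic hyaluronan receptor, fell from 1.39 and 5.45 CPM to 0 in both libraries, at least 70.4-fold lower (edgeR adjusted p = 0.00671). TNFAIP6, which moves those heavy chains to hyaluronan, rose from 0 in both HepG2 libraries to 5.75 and 4.90 CPM, at least 127-fold higher (edgeR adjusted p = 0.00046). The TNFAIP6 level was also 249 CPM in HCC827GR against 0.0577 in HCC827P, 26.3 in U10 and 7.17 in U100 against 0.774 in UWB1.289, and 12.2 in HCC4006GR against 0 in HCC4006P2, but 0 in HCC4006ER. HAPLN3, a link protein, rose by 1.37 in HepG2S3, a call lost under DESeq2, with the replicate block and when any 1 library was left out.

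In HCC4006ER 4 of these binding proteins rose and 3 fell of 7 tested (median 0.67). VCAN, the versican core that binds hyaluronan and carries chondroitin sulfate, rose from 46.5 and 27.8 to 126 and 88.4 CPM, by 1.61 ± 0.21 (SE, edgeR adjusted p = 0.00127). VCAN also belongs to the mesenchymal signature the study used, a further reason why its direction is not independent evidence. Across the 10 pairs VCAN was above 2-fold in 6, up to 4.31 in PancB1Q, and below in 3, with 48.0 and 180.3 CPM in HepG2 against 0 in HepG2S1 and 0.281 and 0.0326 in HepG2S3. Without these 2 pairs 6 of 8 were above 2-fold and 1 below. ITIH5 rose by 3.48 ± 0.32 (SE, edgeR adjusted p = 0.000271) in HCC4006ER, from 1.98 and 0.718 to 14.1 and 14.4 CPM, and HAPLN4 rose from 0 to 0.860 and 0.668 CPM, at least 9.74-fold (edgeR adjusted p = 0.00318). BCAN, the brevican core, fell by 1.501, HAPLN3 by 1.42 and HMMR, an intracellular hyaluronan-binding protein of the mitotic spindle, by 0.98.

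Of the 25 genes for chondroitin and dermatan sulfate synthesis and breakdown, 6 rose and 7 fell of 24 tested in HepG2S3 (median −0.14), and 8 rose and 4 fell of 19 in HCC4006ER (median 0.11). UST, which sulfates uronic acid at the 2-O position, rose in both, by 8.38 ± 0.33 and 1.16 ± 0.21 (SE, edgeR adjusted p = 5.26e-05 and 0.00421). CHST11, a chondroitin 4-O-sulfotransferase, rose by 6.42 ± 0.44 in HepG2S3 (SE, edgeR adjusted p = 0.000223) and fell by 1.22 ± 0.27 in HCC4006ER (SE, adjusted p = 0.0101). CHSY3, a chondroitin synthase, fell by 6.02 in HepG2S3, where 1 count was left against 75 in HepG2, and rose by 2.49 in HCC4006ER. CHST13 and ARSB, a chondroitin 4-O-sulfotransferase and the sulfatase that removes that sulfate, fell by 3.99 and 3.01 in HepG2S3. CHST14, the sulfotransferase that acts on dermatan, fell by 0.64 in HCC4006ER, a call lost without either HCC4006ER library, and CHST15 fell by 1.27.

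Of the 13 other small leucine-rich and cell-surface proteoglycan cores, 6 were tested in HepG2S3, with 5 higher and 1 lower (median 7.73), and 5 in HCC4006ER, with 3 higher and none lower (median 5.58). SRGN, the serglycin core of secretory granules, rose by 10.57 ± 0.41 and CSPG4, a cell-surface proteoglycan also called NG2, by 8.33 ± 0.23 in HepG2S3 (SE, edgeR adjusted p = 5.01e-05 and 2.96e-05). SRGN went from 0.0273 and 0.143 CPM to 152 and 178, and CSPG4 from 0.546 and 0.373 to 192 and 181. CHAD, the chondroadherin core, fell by 1.34, a call lost under DESeq2 and without either HepG2S3 library. PODN, the podocan core, rose in HCC4006ER from 0 and 0.0513 to 1.82 and 1.18 CPM, by 5.58 ± 0.77 (SE, edgeR adjusted p = 0.00151). ECM2, in the stretch, had 0 counts in replicate 2 of HCC4006P1 against 161 counts over the HCC4006ER libraries, at least 26.7-fold higher.

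**Figure D5:**
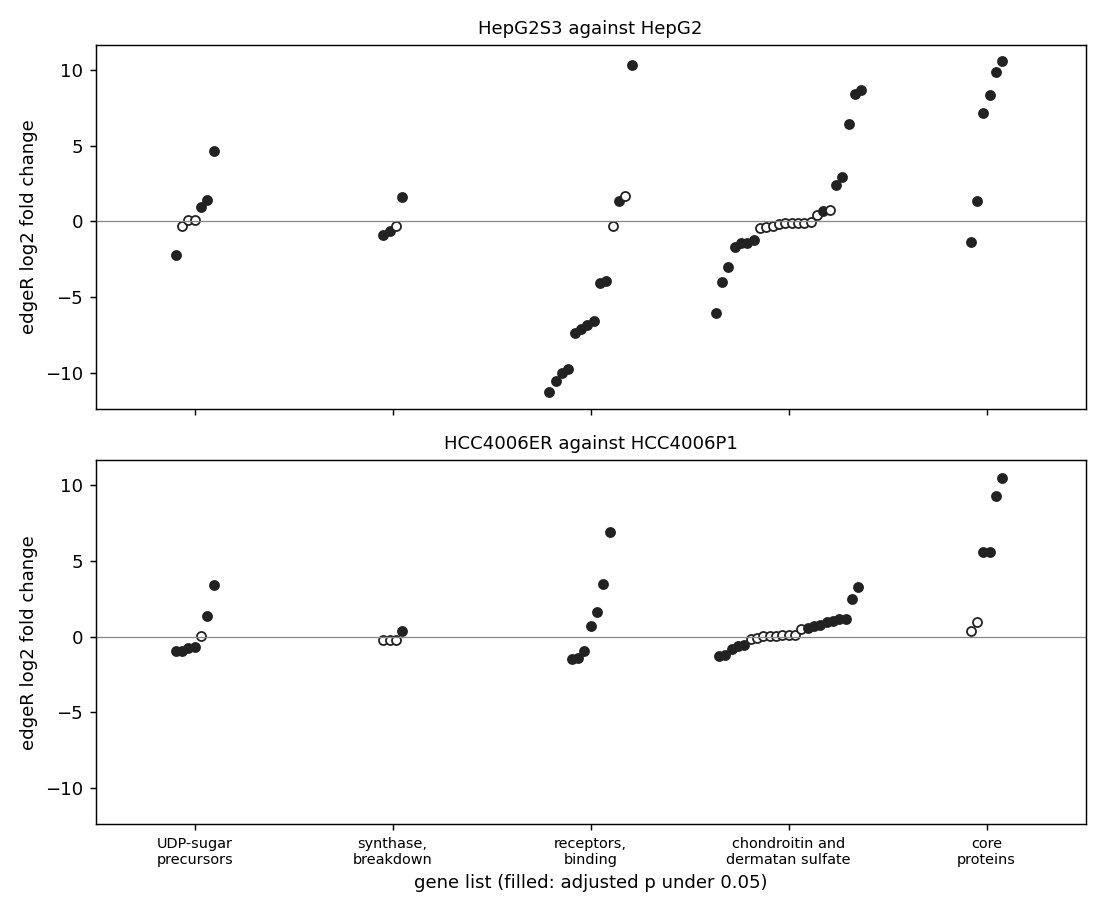
EdgeR log2 fold changes (vertical axes) of the tested genes of the 5 lists (horizontal axis) in HepG2S3 against HepG2 and HCC4006ER against HCC4006P1, where each point is 1 gene, filled points have an adjusted p under 0.05, and the lower panel includes 6 genes tested without replicate 1 of HCC4006P1. In the upper panel most binding proteins lie below 0 and 5 of 6 core proteins above, and in the lower panel no core protein lies below 0.

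The genes whose levels over the 17 cell lines were most like each member were found by Pearson's r of log2(CPM + 1) over 12907 genes, and cell lines of one parent share their background. DSE was most like VEGFC (r = 0.93), a lymphangiogenic growth factor, and DPYSL3 (r = 0.91). Like VCAN, VEGFC belongs to the mesenchymal signature the study used. DCN was most like CMKLR2 and SSTR1 (both r = 0.98), a likeness that rests on the 3 cell lines with DCN. BGN was most like NPM2 and PON3 (both r = 0.95), and HYAL1 like MAPT (r = 0.95) and PDIA5 (r = 0.93). CD44 was most like TRANK1 (r = 0.90) and FADD (r = 0.89), HAS3 like PLAAT4 (r = 0.95) and PRELID2 (r = 0.88), and HAS2 like STX1A (r = 0.91) and C3orf52 (r = 0.89). CEMIP was most like GZF1 (r = 0.88) and MX2 (r = 0.84), CEMIP2 like DUSP16 (r = 0.90) and CNEP1R1 (r = 0.89), and HYAL2 like FAM135A (r = 0.84) and ACAA1 (r = 0.83).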

How the data were processed

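Libraries were made, per the study's methods, with one of a pair of kits (stranded mRNA, or 3′ ends only), and reads were trimmed, mapped (TopHat or STAR) and counted with HTSeq on hg19. The sample records name Bowtie and TopHat, which the methods describe with the stranded kit, and do not name STAR. Which library had which kit is not stated in the sources used here, and a kit that differs within a pair would move its values. The authors deposited whole-number counts per gene for each library, not normalized. The 10 members and the gene lists were chosen with earlier results of these data known. Resistant cell lines were paired with their parents as labelled, and replicates were numbered by the letter that ends each label (A or B). The titles give HepG2 A and B one number and HepG2S3 A and B another, so for this pair they conflict with the numbering used in the replicate block. Symbols and positions came from GENCODE 44 on GRCh37, which placed 45100 of 53515 identifiers, and promoter windows from that genome. CPM used the library total on genes, replicates, which differed beyond counting error (chi-square per degree of freedom 5.85 to 98.6), were averaged, and log2 fold changes used a pseudocount of 1 CPM. Counting error refers to 95% Wilson intervals, which leave out all other error, as PCR duplicates were counted as molecules. Genes expressed in a pair had at least 1 CPM in either cell line. The edgeR 4.0.16 quasi-likelihood test (TMM, filterByExpr, Benjamini-Hochberg adjusted p under 0.05, R 4.3.3) compared HepG2S3 with HepG2 and HCC4006ER with HCC4006P1, there without the stretch lacking counts in HCC4006P1 replicate 1, and 7 summed resistant with 7 parental profiles blocked by parent. The script was tested on simulated data. Named are all members, the 3 largest increases and decreases of each list and test among those called with 1 direction in all pairings, ECM2 and GUSB from the stretch and CHPF2 (chosen after their values were seen), the fibroblast markers beside DCN, and the 2 genes most like each member. Of the genes this rule names, 1 is not reported here. Alternatives were DESeq2 1.42.0, no count filter, a pseudocount of 0.1 CPM, other library sizes, the replicate block and each library left out.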

Additional observations from a re-analysis of the deposited data

Results flagged for a closer look

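In HepG2S3 against HepG2 and HCC4006ER against HCC4006P1, 17 of the named genes lay on opposite sides of 0 in every pairing of libraries. This difference between the pairs was not tested. The share of all genes that did so was not worked out, so nothing is read from the number. All values here are log2 fold changes of CPM + 1, given for HepG2S3 and then for HCC4006ER. Of the members, CEMIP had −5.70 and 7.54, CD44 had 7.23 and −3.92, and CEMIP2 had −1.74 and 0.73. HAS3 had 0.25 and −1.29, and BGN had −4.34 and 0.15, where the smaller value of each was close to 0. The HAS3 value of 0.25 did not exceed the median of 0.28 over all expressed genes in HepG2S3. CEMIP2 and BGN rest on 1 HCC4006P1 library.

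Of the hyaluronan-binding proteins, VCAN had −6.64 and 1.5, ITIH5 −5.36 and 2.70, and HMMR 1.89 and −1.06. HAPLN3 had 0.30 and −1.17 and HAPLN4 had −0.63 and 0.82, both at low levels. Of the chondroitin and dermatan sulfate genes, CHST11 had 4.43 and −1.15, CHST14 had 1.01 and −0.66, and ARSB had −2.64 and 0.97. CHST13 had −3.14 and 0.24, CHSY3 −1.01 and 0.94 and the core CHAD −0.39 and 0.32. UGP2, which makes UDP-glucose, had 1.24 and −0.76.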

How the results depend on the processing

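No tested result reversed under any alternative run. Leaving out HepG2S1 and HepG2S3, chosen after seeing the data, lowered the member values below 2-fold from 18 to 9, and those above went from 19 to 14. A pseudocount of 0.1 CPM gave 25 above and 20 below, and leaving out 1 library gave 19 to 20 and 18 to 19. Of 397 recomputed member changes, 67 moved by more than the replicate spread or counting interval, 29 of them under the smaller pseudocount and 24 under TMM-scaled sizes. In HCC4006ER, keeping all genes as deposited left 1673 genes called higher and 1744 lower, against 3084 and 3182, and 11 and 5 of the list genes, against 17 and 11. Without replicate 1 of HCC4006ER 1990 genes were higher and 2061 lower. Over single libraries left out, the counts ran from 1990 to 4181 higher and 2061 to 4210 lower in HCC4006ER (list genes 14 to 20 and 8 to 13), and from 3567 to 6580 and 3737 to 6662 in HepG2S3 (list genes 14 to 19 and 17 to 28), where the lone library is assumed to vary like the other group. Over the 7 parental cell lines DESeq2 called 81 higher and 21 lower against 0 in edgeR, and leaving out the HepG2 family gave 0. The causes were not tested. Same-numbered libraries deviated together with correlations of 0.0521 (HepG2S3 and HepG2) and 0.467 (HCC4006ER and HCC4006P1), too few pairs to show pairing. With the replicate block, 5279 genes were higher and 5282 lower in HepG2S3, and 3873 and 3914 in HCC4006ER. Among named list genes, 24 of 313 recomputed calls were lost. Depth limits genes near 3 counts.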
